A study of Mus musculus with 4 samples.

Results

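The genes described here are 10 core genes of the Notch signalling pathway: the ligands Dll1, Jag1 and Jag2, the receptors Notch1, Notch2 and Notch3, the DNA-binding protein Rbpj, and the target genes Hes1, Hey1 and Heyl. They were taken as every probe set of the array that the platform annotation names with exactly 1 of these symbols, which gave 20 probe sets of the 45101 on the array and 10 genes of the 18193 named. The array reads each of Dll1, Hes1 and Hey1 with 1 probe set, while 4 members have 2 probe sets and 3 members (Jag1, Heyl and Rbpj) have 3.

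The series holds 4 Affymetrix arrays of mouse embryos at E13.5 (days of embryonic development), with 1 array for each group, and its title concerns how skeletal muscle acts on the development of motor neurons. The groups were limb muscle of BALB/c embryos with the genotype Myod null (MyoD-/- limb), limb muscle of BALB/c embryos (WT limb), an array labelled as back muscle of BALB/c embryos with the genotype Myf5 null, and back muscle of BALB/c embryos (WT back). MyoD (gene Myod1) and Myf5 are transcription factors that commit cells to skeletal muscle. The strain name is the same for all groups. The sources used here do not give how many embryos were pooled for an array, whether fore- or hindlimb was taken, or which part of either gene the mutant alleles lack. A single array stands for each group, so there is no replicate check and no test, and every difference below lies between single arrays.

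Notch signalling passes between cells that touch. A Delta-like (Dll) or Jagged (Jag) ligand on one cell binds a Notch receptor on its neighbour, the receptor is cut by ADAM proteases and then by gamma-secretase, and its intracellular part moves to the nucleus, where it joins Rbpj and switches on target genes. The best known targets encode the Hes and Hey proteins, which are transcriptional repressors. In the embryonic muscle of the mouse, Dll1 and Rbpj are known for keeping progenitor cells from differentiating too early. Notch3 and Heyl are also known from the cells of the vessel wall, and Jag2 from the ectoderm of the limb bud.

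Signals are scaled intensities, brought to a trimmed mean of 500 in each array, with a floor of 100 below which a value was not read. Each gene is represented by its brightest probe set, and a gene was counted as different when the log2 ratio reached 1 (2-fold) and the brighter array reached 200. All 10 brightest probe sets reached 100 in all 4 arrays. Of the 20 probe sets, 15 reached 100 in all 4 arrays, 19 in at least 1, and 1 (the dimmest of Heyl) was under 100 in all. Because a probe set's signal also depends on its probes, the signal of one gene is not set against that of another.

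Some facts of the arrays touch all members. Myod1 had a signal of 688 in MyoD-/- limb against 1438 in WT limb, and Myf5 had 583 in the array labelled Myf5-/- back against 508 in WT back. Myf5 was thus not lower in the array labelled null for it. Which part of the gene the allele lacks is not given, so this signal does not settle the label. Every direction drawn from that array rests on the label. Myod1 was lower in MyoD-/- limb but still above the floor, so its signal does not settle that label either. Myf5 read 1019 in MyoD-/- limb against 506 in WT limb. All 10 skeletal muscle markers reached 100 in every array, and their summed signal was 47181 in MyoD-/- limb, 72841 in WT limb, 93711 in the array labelled Myf5-/- back and 139595 in WT back. The pieces also held other tissues, since markers of cartilage, epidermis, endothelium, macrophages and nerve were read. In such pieces fewer cells of a type and less RNA per cell cannot be told apart. The share of probe sets at 100 or more ran from 56.0% in MyoD-/- limb to 63.6% in the array labelled Myf5-/- back, and the median signal was 125 in MyoD-/- limb against 153 in WT limb, and 166 in the array labelled Myf5-/- back against 134 in WT back. The ratio of 3 prime to 5 prime signal measures loss toward the 5 prime end, whether in the RNA or in labelling. For Gapdh it was 8.06 in MyoD-/- limb against 12.2 in WT limb. In the back it was 9.46 in the array labelled Myf5-/- back against 6.45 in WT back. For Actb the ratio was 3.86 in MyoD-/- limb, 6.88 in WT limb, 4.28 in the array labelled Myf5-/- back and 3.20 in WT back.

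The spread between probe sets of the same gene gives a scale for probe noise, though not for differences between embryos. Over genes with at least 2 readable probe sets, its median SD (log2) was 0.35 in the limb pair (4750 genes), 0.32 in the back pair (4914 genes) and 0.35 in WT limb over WT back (4850 genes). A ratio smaller than this median over all such genes is called within the probe-set spread below. Among the members themselves the median SD was larger, at 0.65 in the limb pair and 0.36 in the back pair. For WT limb over WT back it was 0.42.

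Among the ligands, Dll1, which differentiating myoblasts present to their neighbours, had signals of 419 in MyoD-/- limb, 530 in WT limb, 608 in the array labelled Myf5-/- back and 675 in WT back. Both limb arrays lay below both back arrays. The log2 ratio was -0.34 for MyoD-/- limb over WT limb, -0.15 for the array labelled Myf5-/- back over WT back, and -0.35 for WT limb over WT back. All 3 ratios were below 0 and within the probe-set spread, the first and the last only just.

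Proteins of the MyoD family bind the E-box motif CANNTG, so the Dll1 promoter is shown with each such match in capitals. It is the stretch of 250 bases before the upstream start site in the RefSeq annotation of GRCm38.p6, at chr17:15376933-15377182 on the minus strand, written 5′ to 3′.
Dll1 upstream promoter: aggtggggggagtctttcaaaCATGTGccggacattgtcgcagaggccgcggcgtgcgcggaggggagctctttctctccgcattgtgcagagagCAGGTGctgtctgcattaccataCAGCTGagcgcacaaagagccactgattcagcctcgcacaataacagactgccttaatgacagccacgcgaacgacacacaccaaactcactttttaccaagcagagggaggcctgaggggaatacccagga
The 3 matches begin 229, 155 and 132 bases before the start, and the last of them is CAGCTG. On both strands of the 300-base windows around start sites (250 before, 50 after), CANNTG occurred in 72.3% of all 32851 promoters and CAGCTG in 16.3%, so a match is a description of these letters and not a binding site. The promoter table held 9 windows for 7 of the 10 members, and CANNTG was found in those of 3 members, Dll1, Jag1 and Rbpj. Hes1, Hey1 and Heyl had no entry.

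Jag1, a ligand of vessels and many other embryonic tissues, had signals of 692 in MyoD-/- limb, 693 in WT limb, 560 in the array labelled Myf5-/- back and 613 in WT back. The limb arrays were alike (log2 ratio 0.00) and both above the back arrays. The ratio was -0.13 for the back pair and 0.18 for WT limb over WT back, within the probe-set spread in each. The other probe sets of Jag1 stayed under 200 in all arrays. One read 155 in the array labelled Myf5-/- back against 120 in WT back (0.36), and the dimmest read 187 there against under 100 in WT back, at least 1.87-fold higher.

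Jag2 had signals of 647 in MyoD-/- limb, 444 in WT limb, 567 in the array labelled Myf5-/- back and 595 in WT back. WT limb was the low array, and the other 3 lay close together. The log2 ratio was 0.54 for MyoD-/- limb over WT limb, -0.07 for the back pair and -0.42 for WT limb over WT back. The other probe set of Jag2 gave the opposite sign each time. It read 255 in MyoD-/- limb against 434 in WT limb (-0.77), 406 in the array labelled Myf5-/- back against 297 in WT back (0.45), and WT limb over WT back was 0.55. Jag2 therefore had no direction on which its probe sets agree in any of the 3 comparisons. Summed epidermal markers, of which all 8 reached 100 in every array, were 15258 in MyoD-/- limb against 13283 in WT limb and 10380 in the array labelled Myf5-/- back against 7995 in WT back. Their part in the Jag2 signal was not tested.

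**Figure D1:**
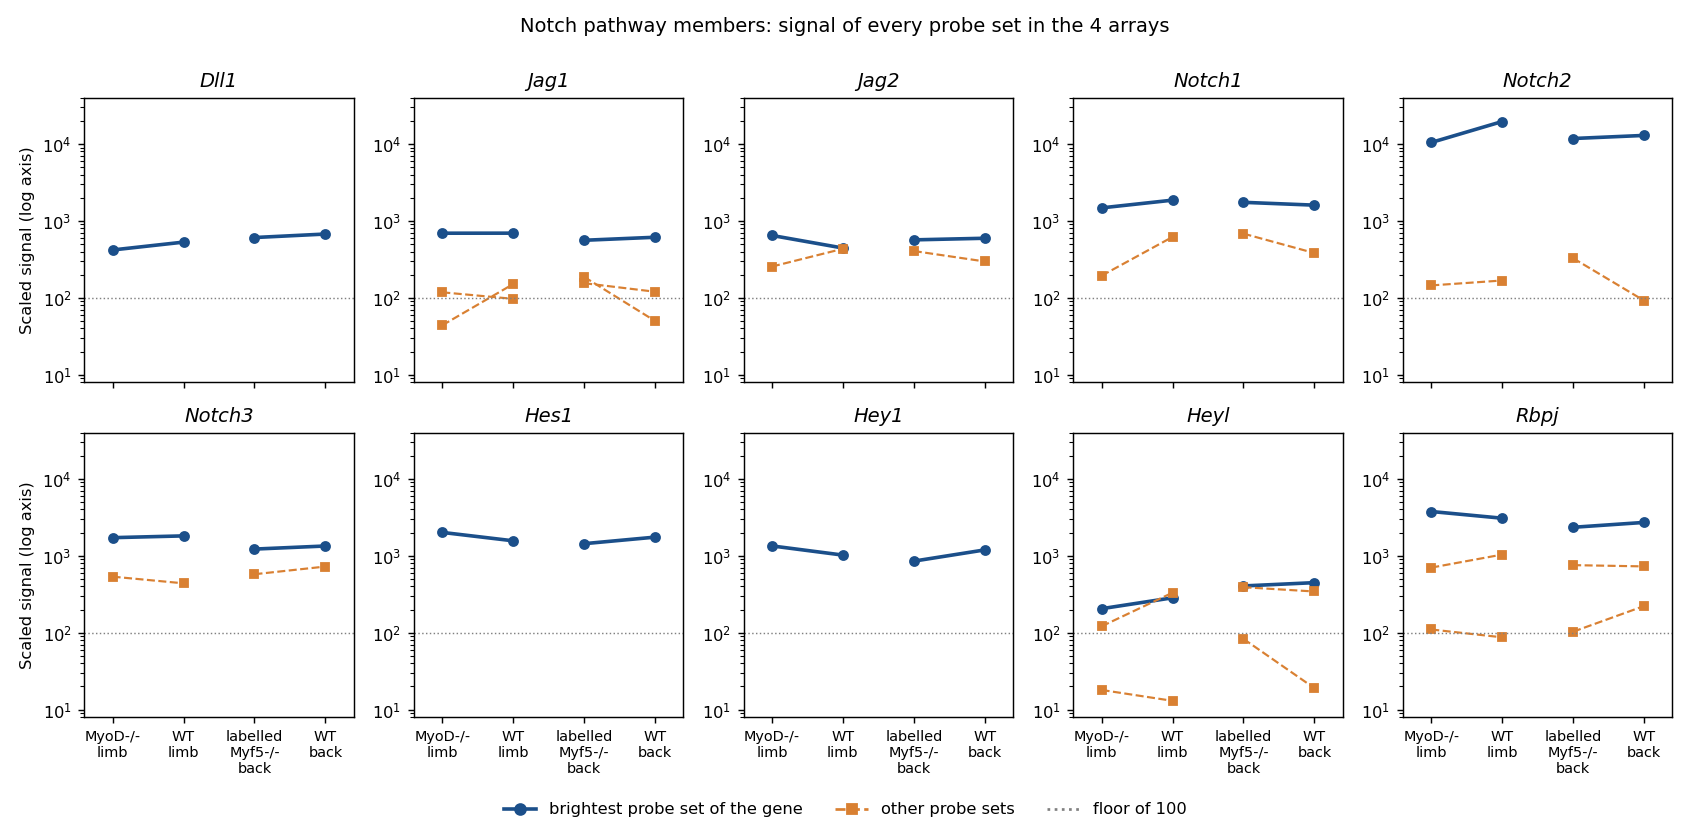
Scaled signal (log axis) of each of the 20 probe sets of the 10 Notch genes in MyoD-/- limb, WT limb, the array labelled Myf5-/- back and WT back, 1 point per array, with lines joining the arrays of a pair and a dotted line at the floor of 100. The brightest probe sets (circles) move little within a pair, with Notch2 in the limb pair the widest at 10462 against 19590, while dimmer probe sets (squares) spread more.

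Of the 3 receptors among the members, Notch2 had the lowest limb ratio by the brightest probe set. That probe set read 10462 in MyoD-/- limb against 19590 in WT limb, a log2 ratio of -0.91 (1.87-fold lower), past the probe-set spread. In the back it read 11779 in the array labelled Myf5-/- back against 12922 in WT back (-0.13). WT limb stood above the other 3 arrays, and WT limb over WT back was 0.60. The limb ratio shrank to -0.56 when the median over the probe sets was taken. The dimmer Notch2 probe set read 145 in MyoD-/- limb against 168 in WT limb (-0.22). In the back it read 327 in the array labelled Myf5-/- back against under 100 in WT back, at least 3.27-fold higher, in contrast to the brightest probe set. That difference was under 2-fold (0.71) with a floor of 200.

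Notch1, the receptor on which most work on muscle progenitors has been done, read 1477 in MyoD-/- limb against 1861 in WT limb (-0.33), and 1744 in the array labelled Myf5-/- back against 1603 in WT back (0.12). WT limb over WT back was 0.22. These ratios were within the probe-set spread. Its dimmer probe set had the same signs and larger ratios. It read 194 in MyoD-/- limb against 619 in WT limb, 3.19-fold lower (-1.68), and 683 in the array labelled Myf5-/- back against 382 in WT back (0.84). For WT limb over WT back it gave 0.70. Under the 6 alternatives that bear on a single probe set, its limb ratio lay between -1.68 and -1.29. MyoD-/- limb was thus the lowest of the 4 arrays by both Notch1 probe sets.

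Notch3, a receptor known from the smooth muscle of vessels, read 1718 in MyoD-/- limb against 1812 in WT limb (-0.08) and 1221 in the array labelled Myf5-/- back against 1339 in WT back (-0.13). WT limb over WT back was 0.44, so that both limb arrays lay above both back arrays. The name of this probe set marks probes that can match related transcripts. The other Notch3 probe set, without such a name, read 535 in MyoD-/- limb against 438 in WT limb (0.29) and 575 in the array labelled Myf5-/- back against 724 in WT back (-0.33). There WT limb over WT back was -0.72. For limb against back the sign of Notch3 thus depends on the probe set, while the back pair was below 0 by both. Markers of smooth muscle and pericytes summed to 28257 in MyoD-/- limb, 29230 in WT limb, 43997 in the array labelled Myf5-/- back and 45481 in WT back. Acta2 alone gave 22811, 23522, 36645 and 38917 of these sums, and the median of the list for WT limb over WT back was -0.07, with 3 of 8 above 0. Myh11 and Cnn1, the defining markers of mature smooth muscle, were under 100 in all 4 arrays.

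Rbpj, the protein through which all Notch receptors reach DNA, read 3760 in MyoD-/- limb, 3076 in WT limb, 2344 in the array labelled Myf5-/- back and 2712 in WT back. Both limb arrays were above both back arrays. The log2 ratios were 0.29 in the limb pair, -0.21 in the back pair and 0.18 in WT limb over WT back, all within the probe-set spread. A dimmer probe set read 701 in MyoD-/- limb against 1036 in WT limb (-0.56), opposite to the brightest. In the back it read 755 in the array labelled Myf5-/- back against 727 in WT back (0.05). The dimmest, near the floor, read 103 in the array labelled Myf5-/- back against 222 in WT back, 2.15-fold lower. It was under 100 in WT limb, so at least 2.22-fold lower in WT limb than in WT back, and each of these calls rests on the 222 of WT back alone. With a floor of 200 both ratios were -0.15.

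Rbpj was the member whose promoter windows held TGGGAA, the core of the motif that Rbpj itself binds, which is why it is shown with the matches of either strand in capitals. It is the stretch of 250 bases before the first of 2 RefSeq start sites with overlapping windows, at chr5:53590096-53590345 on the plus strand of GRCm38.p6, written 5′ to 3′. Both sites lie inside the annotated gene, downstream of its outermost start.
Rbpj internal promoter: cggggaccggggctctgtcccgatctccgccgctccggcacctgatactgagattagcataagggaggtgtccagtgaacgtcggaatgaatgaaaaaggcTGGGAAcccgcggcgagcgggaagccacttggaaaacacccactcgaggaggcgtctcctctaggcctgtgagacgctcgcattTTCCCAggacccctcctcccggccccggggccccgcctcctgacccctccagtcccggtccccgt
One match begins 149 bases and the other, on the opposite strand, 65 bases before the start. TGGGAA occurred on either strand in 25.6% of the 32851 promoters, and in 2 of the 9 member windows, which are the overlapping windows of Rbpj. These letters are not in the windows of Dll1, Jag1, Jag2, Notch1, Notch2 and Notch3.

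The target genes, by their brightest probe sets, had mixed signs in the limb pair and were below 0 in the back pair and in WT limb over WT back. Hes1, a repressor that answers to Notch in many tissues, read 2011 in MyoD-/- limb against 1564 in WT limb (0.36) and 1435 in the array labelled Myf5-/- back against 1746 in WT back (-0.28). Hey1, the related repressor, read 1342 in MyoD-/- limb against 1020 in WT limb (0.40) and 851 in the array labelled Myf5-/- back against 1191 in WT back (-0.49). Both genes were highest in MyoD-/- limb, then WT back, then WT limb, and lowest in the array labelled Myf5-/- back. WT limb over WT back was -0.16 for Hes1 and -0.22 for Hey1. Each was read by 1 probe set, so no other probe set bears on these values. Over the 8 alternatives the Hey1 ratio lay between 0.31 and 0.40 in the limb pair and between -0.49 and -0.44 in the back pair. Most of these alternatives could not move it. Hey1 has 1 probe set, without a shared-probe name and above every floor used. The other floors, the median over probe sets and leaving out shared-probe names therefore return the same ratio. Leaving out the rescaling hardly changed it, so the ranges rest on quantile normalization, loess and the pseudocount.

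Heyl, the third repressor, lay the other way in the limb. Its brightest probe set read 205 in MyoD-/- limb against 284 in WT limb (-0.47) and 405 in the array labelled Myf5-/- back against 447 in WT back (-0.14). WT limb over WT back was -0.65, and both limb arrays lay below both back arrays. A dimmer probe set read 121 in MyoD-/- limb against 331 in WT limb, 2.74-fold lower (-1.45), and 390 in the array labelled Myf5-/- back against 343 in WT back (0.18). It gave -0.05 for WT limb over WT back. The limb call was lost with a floor of 200 (-0.73) and with a pseudocount of 100 (-0.96). By both probe sets Heyl was lowest in MyoD-/- limb. Its difference between WT limb and WT back came from the brightest one.

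Read together for MyoD-/- limb over WT limb, 4 members (Jag2, Hes1, Hey1 and Rbpj) had a ratio above 0 and 6 below. By brightest probe set none of the 10 reached 2-fold, where 7.5% of 14496 measured genes did. With the median over probe sets Notch1 was 2.01-fold lower and was the 1 member called. The share of all genes called by that median was not computed, so this call has no background beside it. The median of the members was -0.04 and that of all genes -0.04. The members ran from -0.91 for Notch2 to 0.54 for Jag2, and 5 of 10 lay within the probe-set spread, as did 53.8% of all genes. The median size of the log2 ratio was 0.35 for the members and 0.32 for all genes. In every comparison a measured gene needed 100 in only 1 of the 2 arrays, while the members reached 100 in all 4. The shares and sizes over all genes thus take in dimmer genes. By probe set, 2 of 19 measured were at least 2-fold lower (Notch1 and Heyl, both dimmer ones) and 0 higher, beside 5.62% of all named probe sets lower and 2.97% higher.

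For the array labelled Myf5-/- back over WT back, 9 of the 10 members had a ratio below 0 and Notch1 was above. With the median over probe sets instead, 5 were below and 5 above, since Jag1 (0.36), Jag2 (0.19), Notch2 (0.79) and Heyl (0.02) changed sign. By brightest probe set none reached 2-fold, where 7.98% of 14684 genes did. The median of the members was -0.14, and that of all genes 0.05, with 53.8% of all genes above 0. The members ran from -0.49 for Hey1 to 0.12 for Notch1, and 9 of 10 lay within the probe-set spread, beside 53.1% of all genes. The median size of the ratio was 0.14 for the members against 0.30 for all genes. All genes here include dimmer ones, so these values do not show the members to be steadier than genes of like signal. By probe set, 1 of 19 was at least 2-fold higher (Notch2, by a bound) and 1 lower (Rbpj), beside 5.8% higher and 2.9% lower of all named probe sets.

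For WT limb over WT back, a comparison that shares an array with each of the others, 5 members lay above 0 and 5 below. None reached 2-fold, where 8.8% of 14605 genes did. The members' median was 0.01 and that of all genes 0.04. They ran from -0.65 for Heyl to 0.60 for Notch2, and 6 of 10 lay within the probe-set spread, beside 50.7% of all genes. By probe set, 1 of 19 was at least 2-fold lower (Rbpj, by a bound), and 0 higher, beside 4.4% lower and 5.54% higher of all named probe sets.

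**Figure D2:**
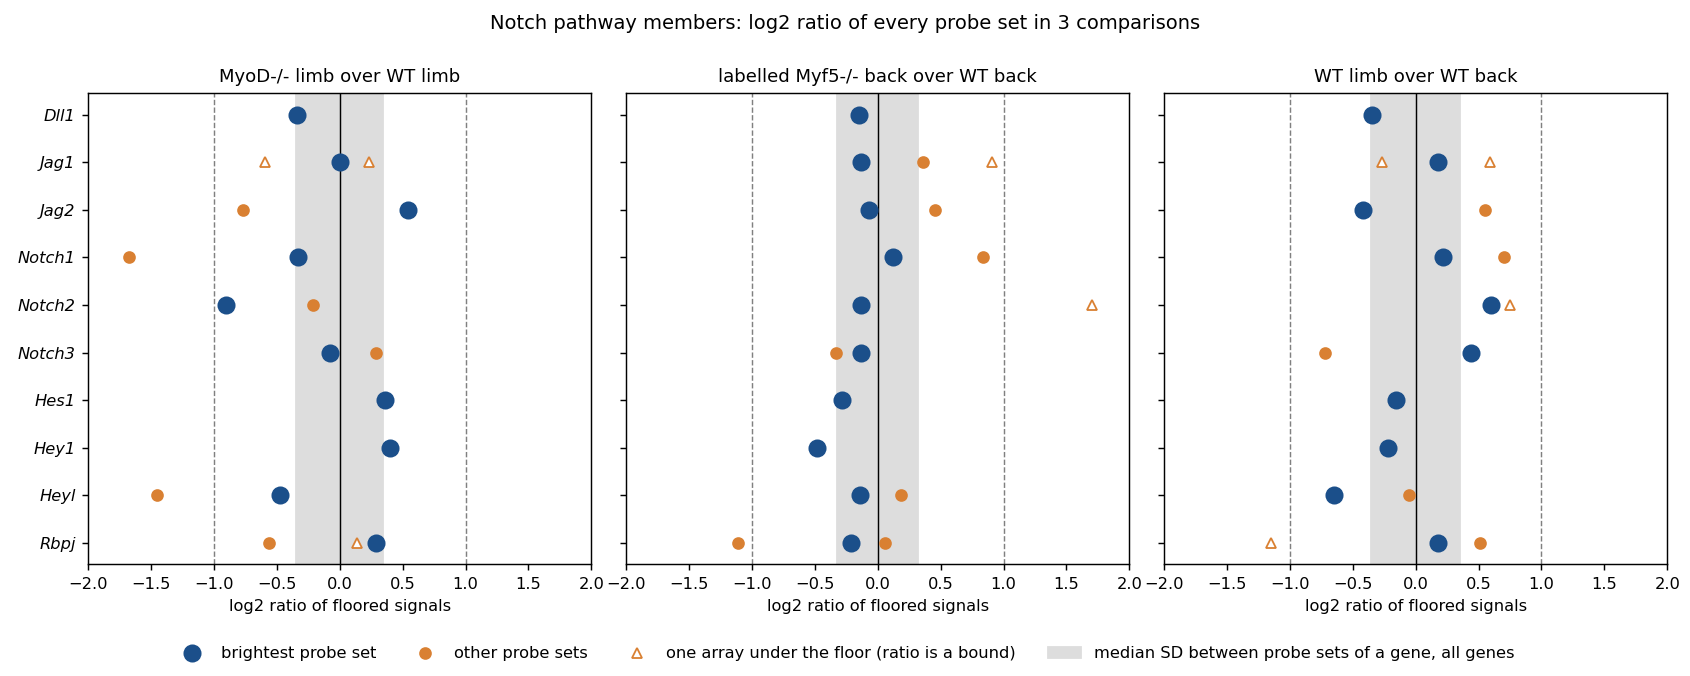
Log2 ratio of floored signals for every measured probe set of the 10 Notch genes in 3 panels, which hold MyoD-/- limb over WT limb, then the array labelled Myf5-/- back over WT back, and WT limb over WT back, with the median SD between probe sets of a gene as a grey band and 2-fold as dashed lines. All brightest probe sets (large circles) lie inside the 2-fold lines, the points past them are dimmer probe sets, and an open triangle is a bound because 1 array was under the floor.

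The dimmer probe sets of the members leaned one way in each pair. In MyoD-/- limb over WT limb, 6 of the 9 measured were below 0, with a median of -0.56, and in the array labelled Myf5-/- back over WT back 7 of 9 were above 0, with a median of 0.36. Over the dimmer probe sets of all genes, 53.9% were below 0 in the limb pair and 54.4% above 0 in the back pair. The medians of all probe sets of an array, and the 3 prime to 5 prime ratios given above, differ in the same directions within each pair. Their part in the members' dimmer signals was not tested. Of the members with at least 2 readable probe sets, 3 of 6 had the same sign in all of them in the limb pair, 2 of 6 in the back pair and 3 of 5 for WT limb over WT back. Over all genes the shares were 40.4%, 43.8% and 43.6%.

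The limb pair and the back pair share no array and carry different mutations. Opposite signs in these pairs were seen for 5 of 10 members (Jag2, Notch1, Hes1, Hey1 and Rbpj), beside 58.4% of the 10911 genes at 100 or more in all arrays. Higher in MyoD-/- limb and lower in the array labelled Myf5-/- back were 4 of 10, beside 29.6% of all genes. Hey1 was the only member past the probe-set spread in both with opposite signs, as were 12.1% of all genes.

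**Figure D3:**
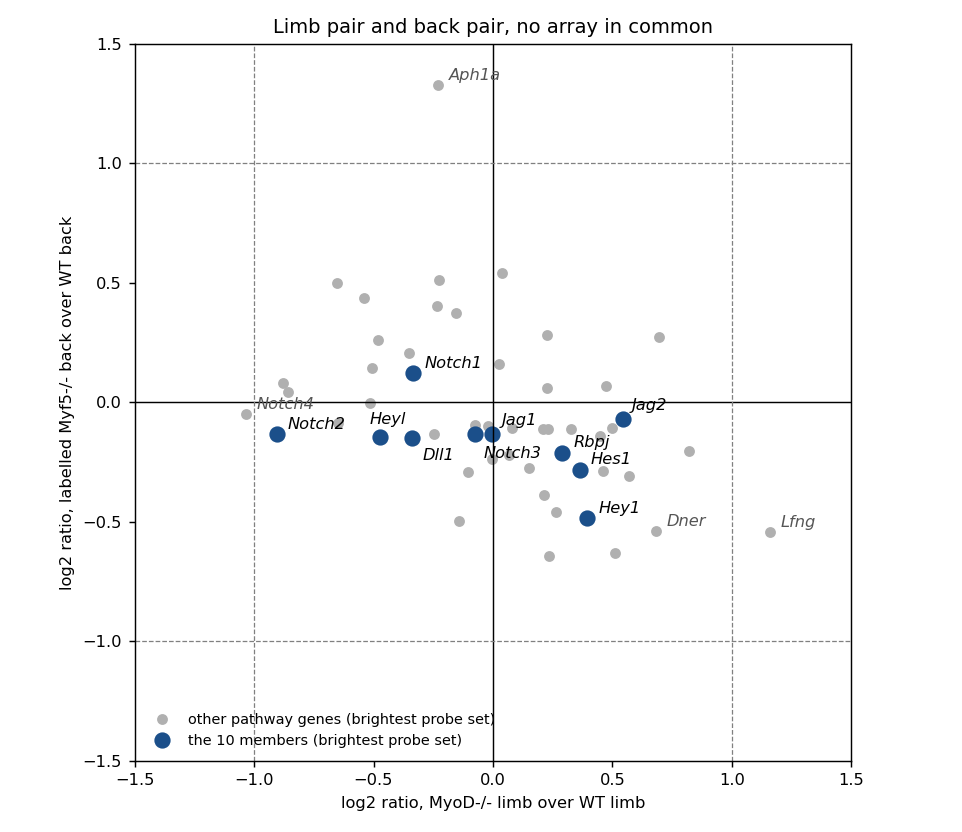
Log2 ratio of MyoD-/- limb over WT limb (x axis) against that of the array labelled Myf5-/- back over WT back (y axis), 1 point per gene by its brightest probe set, for the 10 Notch genes (large points) and the wider pathway (small grey points), with dashed lines at 2-fold. Hey1, Hes1, Rbpj and Jag2 lie at the lower right, Notch2 farthest left at -0.91, and no member beyond 2-fold on either axis.

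By brightest probe set, the range of a member's log2 signal across the 4 arrays was widest for Heyl at 1.12 (2.18-fold). Notch2 at 0.91 and Dll1 at 0.69 followed, and Jag1 at 0.31 and Notch1 at 0.33 were narrowest. The dimmer Notch1 probe set ranged far wider, at 1.82 (3.52-fold), and dimmer ones of Notch2 and Heyl reached 1.71 and 1.69. By brightest probe set MyoD-/- limb held the highest signal of 4 members and the lowest of 4 others. The array labelled Myf5-/- back held the highest of 0 members and the lowest of 5 (Jag1, Notch3, Hes1, Hey1 and Rbpj). How often each array is highest or lowest over all genes was not counted, so these counts only describe the members. By dimmer probe sets, however, the array labelled Myf5-/- back was the highest for Jag1 (155 and 187), Notch1 (683), Notch2 (327) and Heyl (390). For the dimmer probe sets of Jag2, Notch3 and Rbpj it was not the highest. By brightest probe set Dll1 and Heyl shared an order, as did 4.45% of the 10911 genes. It was highest in WT back, then the array labelled Myf5-/- back, WT limb and MyoD-/- limb. Jag1 and Notch3 shared another, highest in WT limb, then MyoD-/- limb, WT back and the array labelled Myf5-/- back, as did 5.69%. The order of Hes1 and Hey1 was found in 5.1%. Several of the neighbours in these orders differ by less than the probe-set spread, such as the 2 limb arrays for Jag1.

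Summed markers of cell types were set beside these orders. The order of Dll1 and Heyl was also that of the summed skeletal muscle markers, of which 8 of 10 showed it singly, and of the summed markers of smooth muscle and pericytes, neurons and macrophages, where 2 of 10, 2 of 8 and 3 of 7 showed it singly. Neuron markers summed to 1135 in MyoD-/- limb, 1300 in WT limb, 2291 in the array labelled Myf5-/- back and 2715 in WT back, and macrophage markers to 3730, 4483, 7076 and 7377 in the same arrays. The order of Hes1 and Hey1 was also that of the summed markers of muscle progenitors, at 3445 in MyoD-/- limb, 2445 in WT limb, 2119 in the array labelled Myf5-/- back and 2767 in WT back. It was that of the summed cartilage markers too, at 16495, 13712, 3585 and 14463. Singly, 1 of 5 progenitor markers (Met) and 0 of 8 cartilage markers showed this order. All 8 cartilage markers were higher in MyoD-/- limb than in WT limb, and 7 of 8 were lower in the array labelled Myf5-/- back than in WT back. Of the 5 progenitor markers on the array, 4 were higher in MyoD-/- limb, and 3 were lower in the array labelled Myf5-/- back. Endothelial markers, which bear on Notch1, Jag1 and Hey1, summed to 8322, 7287, 7890 and 8616 in the 4 arrays, with 4 of 9 above 0 in the limb pair and 5 of 10 in the back pair. The part of any of these cell types in the members' signals was not tested.

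**Figure D4:**
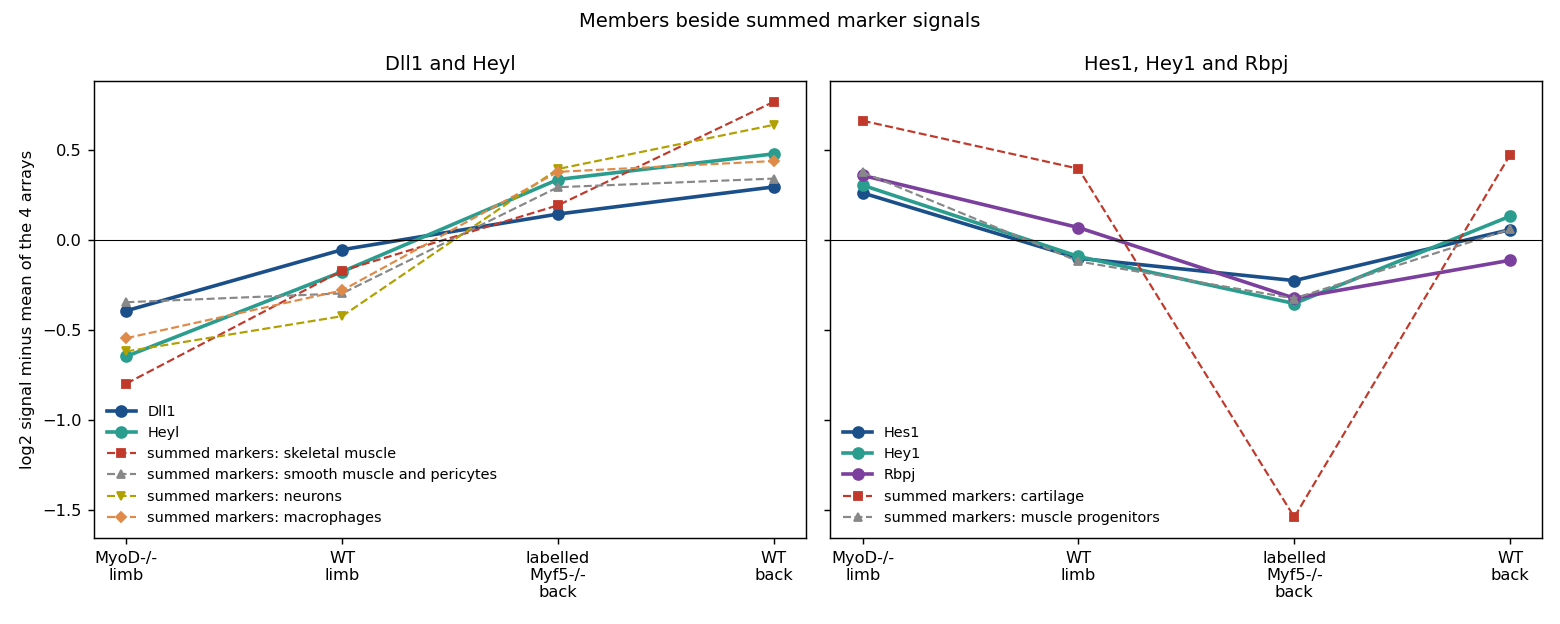
Log2 signal minus its mean over the 4 arrays for Dll1 and Heyl (left) and for Hes1, Hey1 and Rbpj (right), beside the summed signals of marker genes of cell types (dashed lines), in MyoD-/- limb, WT limb, the array labelled Myf5-/- back and WT back. By brightest probe set Dll1 and Heyl are lowest in MyoD-/- limb and highest in WT back. So are the summed markers of skeletal muscle, of smooth muscle and pericytes, of neurons and of macrophages. Hes1 and Hey1 are highest in MyoD-/- limb and lowest in the array labelled Myf5-/- back, where the summed cartilage markers are at 3585.

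For the members with the widest range by brightest probe set, the genes most like them in pattern over the 4 arrays were sought. Euclidean distance between centred log2 signals was used, over 10901 other genes. For Heyl they were Hspb3, a small heat shock protein of muscle, at 259 in MyoD-/- limb, 354 in WT limb, 484 in the array labelled Myf5-/- back and 554 in WT back (distance 0.058), Slc25a45 (0.072) and Rps27 (0.076). For Notch2 they were Crim1, at 113, 224, 132 and 142 in the same arrays (0.067), Gm5617 (0.090) and Rab27b (0.091). For Dll1 they were Dpm1, an enzyme of protein glycosylation, at 795, 1014, 1174 and 1272 (0.026), Nsdhl (0.063) and Lsm10 (0.064). Likeness over 4 arrays is a description of these values.

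The wider pathway was read with a list of 49 further genes, of which 45 are named by a probe set, grouped by role. In MyoD-/- limb over WT limb, 43 were measured, 23 above and 20 below 0, with a median of 0.04. By brightest probe set 1 was at least 2-fold higher and 1 lower, beside 7.5% of all genes in either direction. Lfng, a glycosyltransferase that alters how receptors answer to ligands, read 223 in MyoD-/- limb against under 100 in WT limb, at least 2.23-fold higher. Notch4, the receptor of endothelium, read 155 against 318 (-1.03), and its other probe sets gave -0.65 and a bound of -0.81. The receptor genes were below 0 in this pair by their brightest probe sets, from -1.03 for Notch4 to -0.08 for Notch3, while the other Notch3 probe set was at 0.29.

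By their brightest probe sets the other genes of the list stayed under 2-fold in the limb pair. Of 35 dimmer pathway probe sets measured there, 1 was at least 2-fold higher (Adam10, 1.47, with -0.01 in the brightest) and 2 were lower (Neurl1a, and Snw1 at -1.24, with -0.48 in the brightest). Of 10979 dimmer probe sets of all genes, 422 were higher and 679 lower by the same rule. Furin, the protease that first cuts Notch receptors on their way to the membrane, read 1105 in MyoD-/- limb against 2031 in WT limb (-0.88). Numbl, a relative of the Notch inhibitor Numb, read 294 against 533 (-0.86). Of the sugar transferases, 4 of 5 were above 0, among them Pofut1 (0.50) and Poglut1 (0.45), which add the fucose and the glucose of the receptors. The atypical ligand Dner read 959 in MyoD-/- limb against 598 in WT limb (0.68), but 0.04 in its other probe set. Of the ligases that let ligands be taken up, Mib2 was -0.65 in its 1 probe set. Neurl1a was 0.57 in its brightest probe set, while a dimmer one read under 100 against 308, at least 3.08-fold lower, and another gave -0.40. Mib1 was 0.46, with -0.30 and -0.79 in its dimmer probe sets. The gamma-secretase subunit Aph1b was 0.70, with -0.19 in its other probe set. Nrarp, a feedback inhibitor that Notch induces, read 1360 against 1380 (-0.02), with 0.22 in its other probe set.

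In the array labelled Myf5-/- back over WT back, 44 pathway genes were measured, 18 above and 26 below 0, with a median of -0.10. By brightest probe set 1 gene reached 2-fold, beside 7.98% of all genes. This was Aph1a, another gamma-secretase subunit, at 1768 against 705 (1.33), and its other probe sets gave 0.50 and -0.64. The probe sets at 1.33 and -0.64 have shared-probe names. Of 31 dimmer probe sets measured, 2 were at least 2-fold higher (Pofut1 at 1.12 and Itch at 1.07) and 2 lower (Neurl1a at -1.04 and Snw1 at -1.01). For all but Neurl1a the brightest probe set had the other sign. Over all genes, 700 of 11338 dimmer probe sets were higher by the same rule and 391 lower. Of the inhibitors and turnover factors, 7 of 9 were below 0, where 53.8% of all genes were above. Among the 7 were Numb (-0.46), Nrarp (-0.10) and Fbxw7 (-0.50, with 0.39 in its other probe set), while Dtx3 was 0.51. Of the sugar transferases, 4 of 5 were below 0, among them Mfng (-0.64) and Lfng, at 175 against 255 (-0.54). The ligand Dll4, of endothelial tip cells, read 297 against 225 (0.40), and Dner read 660 against 959 (-0.54). The repressor Hes5 read 222 in the array labelled Myf5-/- back against 134 in WT back (0.73) and was under 100 in both limb arrays. Hes6, a relative made in myoblasts and neurons, read 1808 against 2104 (-0.22).

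Between WT limb and WT back, 44 pathway genes were measured, 24 above and 20 below 0, with a median of 0.07. By brightest probe set 1 was at least 2-fold higher and 2 lower, beside 8.8% of all genes. Dlk2 read 443 in WT limb against 166 in WT back (1.41), with 1.09 in its other probe set. Its relative Dlk1, an atypical ligand of embryonic muscle and fat precursors, read 3455 in WT limb against 11034 in WT back (-1.68), with -1.25 in its other probe set. Both probe sets of Dlk2 and the brightest of Dlk1 have shared-probe names, which mark probes that can match more than 1 transcript. Lfng read under 100 in WT limb and 255 in WT back, a ratio at least 2.55-fold lower, which rests on the 255 alone. Dtx4 was -0.97 (552 against 1079), but -0.05 in its other probe set (835 against 866), and Furin 0.92 (2031 against 1076), while Hes6 was -0.53. Both probe sets of Dlk1 and both of Dlk2 were past 2-fold. The other dimmer probe sets past it were of Notch4, at 237 in WT limb against under 100 in WT back, and of Adam10, at 175 against 428 (-1.29), while their brightest probe sets gave 0.33 and -0.15. Over all genes, 651 of 11137 dimmer probe sets were higher by the same rule and 621 lower.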

How the data were processed

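Total RNA (6 µg) of dissected muscle was made into biotin-labelled cRNA and hybridised to Affymetrix arrays, per the labels' protocols. The authors deposited linear intensities, with 1 value for each probe set in each array. The submitters' processing notes name MAS5, whose version, like the genome build, is not stated in the sources used here. The deposited columns had 2% trimmed means of 1477 to 1479, so they were already scaled alike. The number of arrays limits the precision.

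Each column was rescaled to a 2% trimmed mean of 500 and floored at 100, and log2 ratios were taken (Python 3.11.15, pandas 2.3.3, NumPy 2.4.6, statsmodels 0.14.6 for loess). A ratio with 1 array under the floor is a bound, and with both under it no ratio was made. Genes come from the platform annotation: 34945 probe sets have 1 symbol, 932 several and 9211 none. The 64 controls and probe sets with several symbols name no gene. All 10 members' Entrez numbers carry the same symbol in RefSeq.

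Named are all members by every probe set. Of the other pathway genes, those at least 2-fold with the brighter array at 200 and up to 2 more per role by size are named, plus members of a role needed to describe it, which were added after their values were seen. For the 3 members of widest range by brightest probe set the 3 most alike genes are named. The members, lists and thresholds were chosen with earlier results of these data known. Alternatives were no rescaling, quantile normalization, loess within the pair, floors of 50 and 200, a pseudocount of 100 without a floor, the median over a gene's probe sets, and leaving out probe sets with shared-probe names.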

Additional observations from a re-analysis of the deposited data

Results flagged for a closer look

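Hey1 lay in opposite directions in the limb pair and in the back pair, by more than the probe-set spread in each. It read 1342 in MyoD-/- limb against 1020 in WT limb (log2 ratio 0.40) and 851 in the array labelled Myf5-/- back against 1191 in WT back (-0.49), so the limb ratio minus the back ratio was 0.88. With 1 array per group this difference was not tested. The Hey1 limb ratio was smaller than the members' own median spread of 0.65, and its back ratio was larger than theirs of 0.36. The pairs also carry different labelled mutations, so site and mutation cannot be told apart.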

How the results depend on the processing

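By brightest probe set no member was called in any comparison, so no call could be lost. Over the 8 alternatives 4 of 80 values moved by more than the probe-set spread in the limb pair, 3 in the back pair and 3 for WT limb over WT back. Many of these values could not change sign, so counts of kept signs are no measure of stability. All brightest probe sets lay above every floor used, so the other floors left their ratios unchanged. A pseudocount cannot turn a sign, and leaving out the rescaling hardly moved a ratio. The median over probe sets cannot alter a gene with 1 probe set, and leaving out shared-probe names touched Notch3 alone. The sign was kept in 77 of 80 values for the limb pair, 76 of 80 for the back pair and 77 of 80 for WT limb over WT back. The exceptions came from the choice of probe set. With the median over probe sets Jag2 was -0.11, 0.19 and 0.06 in these comparisons, and in the back pair Jag1 was 0.36, Notch2 0.79 and Heyl 0.02. Without the shared-probe probe set Notch3 was 0.29 in the limb pair and -0.72 for WT limb over WT back. With the median over probe sets 1 member, Notch1, was at least 2-fold lower in MyoD-/- limb, against 0 members otherwise. No share of all genes was computed for that median. Calls higher, as a share of all genes called, depended on scaling: 30.7% in the limb pair, 68.9% in the back pair and 60.2% for WT limb over WT back became 45.5%, 50.3% and 53.3% after quantile normalization, and 43.5%, 52.9% and 54.6% after loess. The share of all genes called also depended on the setting. It was lowest with a floor of 200, at 2.58% in the limb pair, 2.36% in the back pair and 4.40% for WT limb over WT back. Without rescaling it was highest, at 19.4%, 20.0% and 20.8% in these comparisons. No paired analysis was possible because each group has 1 array, and for the same reason no replicate could be left out.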
